A study of Homo sapiens with 2 samples.

Results

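Genes for the synthesis of cholesterol and fatty acids were compared between 2 arrays of U87 cells, an established human glioblastoma line. The set held 34 genes, namely 17 enzymes from HMG-CoA synthase to cholesterol, 5 genes that control sterol regulatory element-binding proteins (SREBPs), 4 genes of the liver X receptors (LXRs) and their efflux targets, 1 sterol carrier and 7 fatty acid genes. Members were found as the probe sets whose only gene symbol in the platform annotation was one of these names, which gave 69 probe sets for 30 of the 34 genes, out of 19775 genes on the array. FDFT1, CYP51A1, NR1H2 and FADS1 lacked such probe sets, so their signals are not analysed here. MVD lay below the floor, the level of probe sets for olfactory receptor genes, on both arrays, so that 29 members were detected, 26 of them on both arrays.

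Both samples were U87 cells grown in medium with 10% serum and transfected with a lipid reagent. One received a none-target siRNA and the other a FOXM1 siRNA, directed at a transcription factor gene, and total RNA was taken 48 hours later. Their arrays are called the control-labelled and the knockdown-labelled array. No other genotype or treatment was given for either. The knockdown was transient, and the labels name no clone and no pooling. The comparison asks which transcripts differ after FOXM1 knockdown. Each condition had 1 array, so there was no SD between samples and no p-value and no array could be left out. A member was called at least 2-fold different from the log2 difference of its brightest probe set, always the knockdown-labelled array minus the control-labelled array. The only error available lay within the arrays: the differences of 2 probe sets of one gene had an SD of 0.65 over 5476 genes, or 0.46 per probe set on the log2 scale.

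Neither the target nor the cells matched the labels cleanly. FOXM1 read 1520 on the control-labelled array and 1343 on the knockdown-labelled array, a log2 difference of -0.18, below the SD of 0.46. The FOXM1 value rests on 1 probe set whose ID ends in _x_at, a kind that can match other transcripts. The genes CDKN2A and MTAP of chromosome arm 9p, which U87 cells are known to lack through a homozygous deletion, read 3467 and 619 on the control-labelled array and 421 and 76.3 on the other, and CDKN2B beside them read 350 and 31.8. Of 9 glial and glioma markers, 6 and 5 were above the floors, with GFAP and AQP4 below them on both arrays. Their summed signal of 25410 against 71251 was mostly VIM (21179 against 40017) and CD44 (2222 against 29344). NES (at least 4.29-fold) and SLC1A3 (1.46-fold) were also higher on the knockdown-labelled array. SOX2 read 680 against 59.2, below the floor, at least 8.75-fold lower. S100B was lower by at least 1.13-fold, and OLIG2 was level (270 against 266). The 6 epithelial markers summed to 12763 against 1104, mostly KRT18 and DSP, which were 6.99-fold and 28.9-fold lower on the knockdown-labelled array. CDH1 was lower too, by at least 1.45-fold. KRT8 (220 against 265) and EPCAM (48.1, below the floor, against 98.8) were higher, and KRT19 lay below both floors. Of 3 endothelial markers, 1 and 2 were above the floors, and no leukocyte or hepatocyte marker was. Of all probe sets, 53.2% and 50.5% were above the floors, and 31.4% of all 13865 detected genes differed at least 2-fold. The ACTB control gave 3′ over 5′ ratios of 6.79 and 4.21, and the GAPDH control gave 1.26 and 1.09. An effect of the siRNA and a difference between the cells cannot be told apart in any value below.

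Cells make cholesterol from acetyl-CoA through mevalonate, the isoprenoid diphosphates, squalene and then the sterol ring, which is trimmed and reduced to cholesterol. When sterols are low in the endoplasmic reticulum, SCAP escorts the SREBPs to the Golgi, where they are cut and released to activate the genes of this pathway. When sterols are high, INSIG proteins hold SCAP back, and oxidised sterols activate LXRs, which raise cholesterol export. Glioblastoma cells are known for a high demand for cholesterol, and LXR agonists are studied in them for that reason.

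Most promoters of the members held the boxes of NF-Y and of GC-box factors, which are known to work beside SREBPs. The 250 bases before the RefSeq start sites (build GRCh38.p14) were searched on both strands for the sterol element TCACNCCAC, the NF-Y box CCAAT and the GC box GGGCGG, and for the direct-repeat LXR element. Promoters were available for 30 members, but not for FDFT1, SQLE, FASN and ABCG1. The 30 include CYP51A1, NR1H2 and FADS1, whose signals are not analysed. Of the 30, 20 (66.7%) held CCAAT and 29 (96.7%) held GGGCGG, against 40.2% and 62.1% of 15843 coding genes. A gene was counted if any of its start sites held the letters. SREBF2 was the only member with TCACNCCAC, which 1.19% of coding genes held, and no member held the LXR element, which 0.00631% held. Over all 35116 promoters, coding or not, the shares were 0.883% for TCACNCCAC, 32.0% for CCAAT, 42.6% for GGGCGG and 0.0142% for the LXR element. No overlap between different motifs was searched for, and adjoining GC boxes can share bases. The LXR element was searched for only as a perfect repeat, and its counts above hold for that exact form alone. Imperfect repeats were not searched for, so the counts do not show that ABCA1 or any other member lacks an LXR element. The sterol element, too, was searched for only as the exact form TCACNCCAC. Variant forms were not searched for, so members without this form are not shown to lack a sterol element. A match is a run of letters and not a binding site. The 6 promoters below include those of members whose differences are described most closely. Of these, INSIG1, LSS and ABCA1 were higher and SC5D and FDPS lower on the knockdown-labelled array. SREBF2 is included as the holder of TCACNCCAC. Each is written from 250 bases upstream to the base before the start site, and capitals mark the sterol element, CCAAT and GGGCGG on either strand. INSIG1 lies at chr7:155297628-155297877 on the plus strand, LSS at chr21:46228775-46229024 on the minus strand and ABCA1 at chr9:104928156-104928405 on the minus strand. SC5D lies at chr11:121292521-121292770 on the plus strand (the first of its start sites), FDPS at chr1:155308616-155308865 on the plus strand and SREBF2 at chr22:41832855-41833104 on the plus strand.
INSIG1: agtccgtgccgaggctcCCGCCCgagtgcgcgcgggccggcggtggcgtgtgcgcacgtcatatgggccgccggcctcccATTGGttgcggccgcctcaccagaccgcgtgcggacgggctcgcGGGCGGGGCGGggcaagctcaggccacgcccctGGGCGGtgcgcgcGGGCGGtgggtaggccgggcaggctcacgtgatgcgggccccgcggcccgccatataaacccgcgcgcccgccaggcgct
LSS: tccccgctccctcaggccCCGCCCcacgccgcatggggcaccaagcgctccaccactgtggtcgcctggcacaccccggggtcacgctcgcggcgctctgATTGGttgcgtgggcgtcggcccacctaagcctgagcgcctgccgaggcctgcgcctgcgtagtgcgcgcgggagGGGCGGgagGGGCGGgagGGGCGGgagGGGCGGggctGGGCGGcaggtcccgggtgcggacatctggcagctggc
ABCA1: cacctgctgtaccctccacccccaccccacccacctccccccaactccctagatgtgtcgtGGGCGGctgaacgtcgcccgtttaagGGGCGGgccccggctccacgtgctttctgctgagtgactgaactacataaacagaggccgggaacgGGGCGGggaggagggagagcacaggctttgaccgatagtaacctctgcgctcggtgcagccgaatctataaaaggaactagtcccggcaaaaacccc
SC5D: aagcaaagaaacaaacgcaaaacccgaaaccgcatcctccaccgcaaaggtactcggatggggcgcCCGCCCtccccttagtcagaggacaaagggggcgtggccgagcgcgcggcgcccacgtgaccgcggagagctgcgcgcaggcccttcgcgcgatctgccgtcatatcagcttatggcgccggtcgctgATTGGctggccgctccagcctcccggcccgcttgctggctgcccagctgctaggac
FDPS: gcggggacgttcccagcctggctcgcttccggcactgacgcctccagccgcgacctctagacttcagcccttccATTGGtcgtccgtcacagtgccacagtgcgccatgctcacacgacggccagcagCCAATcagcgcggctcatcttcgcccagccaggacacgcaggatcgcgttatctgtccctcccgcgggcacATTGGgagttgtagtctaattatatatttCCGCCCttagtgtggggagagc
SREBF2: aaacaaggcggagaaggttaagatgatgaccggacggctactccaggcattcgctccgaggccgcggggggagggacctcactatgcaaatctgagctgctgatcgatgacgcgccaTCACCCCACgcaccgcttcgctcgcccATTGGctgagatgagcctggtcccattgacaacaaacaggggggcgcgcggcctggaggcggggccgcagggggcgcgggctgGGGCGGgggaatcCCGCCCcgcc
All of these windows hold at least 1 GC box. The NF-Y box stands in INSIG1, LSS, SC5D, FDPS and SREBF2, that is, in genes that were higher and in genes that were lower, and is absent from the ABCA1 window.

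As a set the members were split. Of the 29 detected members, 5 were at least 2-fold higher on the knockdown-labelled array (ABCA1, INSIG1, LSS, INSIG2 and SREBF1), against 16.0% of all detected genes, and 5 were at least 2-fold lower (SC5D, TM7SF2, SCAP, FASN and FDPS), against 15.4%. The other 19 were not past 2-fold, and for ABCG1 and FADS2 among them, below the floor on 1 array, the value is only a bound. The members' median log2 difference was -0.13, beside 0.0096 over all detected genes, with 14 members above 0 and 15 below. At 1.5-fold, 8 members were higher and 8 lower, against 26.1% and 26.8% of all detected genes. The share of members past 2-fold in each direction is thus close to that of all genes. With the hybridisation controls set equal, 3 members were higher and 7 lower, while over all genes the split moved from 2218 higher and 2132 lower to 1567 and 3200. In RNA from bulk samples, fewer cells with a transcript and less of it per cell cannot be told apart. The plot of signals by gene shows the members by role.

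**Figure D1:**
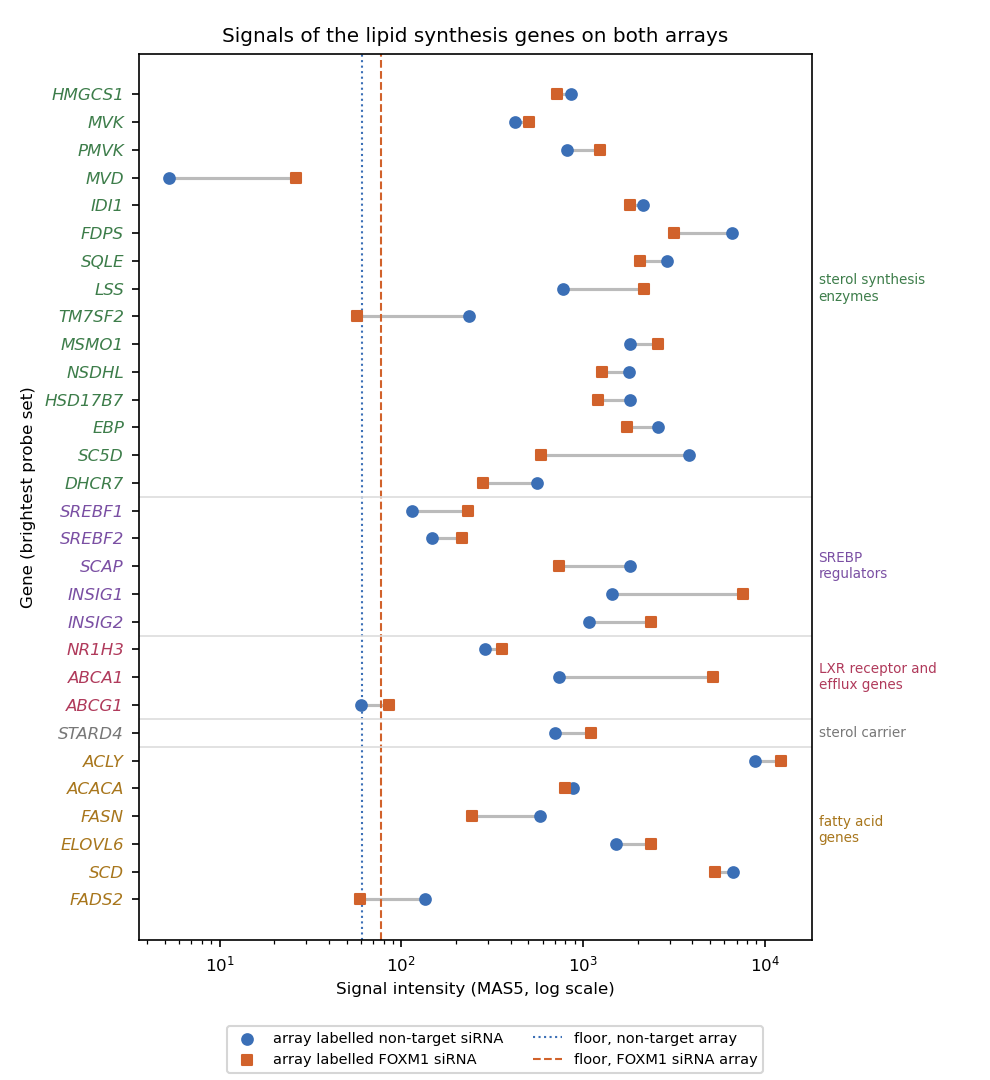
Signal intensity (log axis) of the brightest probe set of each of the 30 measured members on the control-labelled array (circles) and the knockdown-labelled array (squares), 1 array each, grouped by role; vertical lines are the floors of 60.8 and 77.7. SC5D and ABCA1 are the widest pairs above the floors, in opposite directions, and both symbols of MVD lie below the floors.

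The enzymes of the mevalonate and isoprenoid steps differed little, apart from FDPS. HMGCS1, which condenses acetyl-CoA with acetoacetyl-CoA, read 858 on the control-labelled array and 722 on the knockdown-labelled array (-0.25), but its dimmer probe set went the other way at 0.54. MVK and PMVK, the kinases that add phosphates to mevalonate, read 422 against 503 (0.25) and 819 against 1243 (0.60). MVK differed by less than the SD of a probe set and was at -0.051 with the hybridisation controls set equal. Its second probe set went the same way as the brightest, at 144 against 223 (0.63). A dimmer MVK probe set lay on the other side, at 121 against 34.9, below the floor (at least 1.55-fold lower). MVD, the next enzyme, read 5.29 and 26.3, under both floors, and was given no fold. IDI1, the isomerase that makes the reactive isoprene unit, read 2126 against 1823 (-0.22), and its 4 probe sets ran from -0.22 to 1.26. FDPS, which joins isoprene units to farnesyl diphosphate and is the enzyme that bisphosphonate drugs block, read 6613 against 3182 in its only probe set, 2.08-fold lower. With loess scaling FDPS was at -0.96, just under 2-fold. Of the 6 detected steps before the sterol ring, FDPS was the only one past 2-fold. Their median log2 difference was -0.24, and it was 0.13 with the median of probe sets.

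From squalene on, most enzymes were lower on the knockdown-labelled array, and LSS and MSMO1 were not. SQLE, the epoxidase that commits squalene to sterols, read 2889 against 2052 (-0.49), and its 3 probe sets above both floors lay between -0.86 and -0.47. LSS, the cyclase that closes the sterol ring, read 776 on the control-labelled array and 2160 on the knockdown-labelled array, 2.78-fold higher. Its further probe sets went the same way, at 64.8 against 106 (0.71) and at 36.0, below the floor, against 160 (at least 2.63-fold). LSS is thus the only sterol enzyme of the 14 detected that was at least 2-fold higher. MSMO1, the oxidase that removes methyl groups from the ring, followed in the same direction at 1818 against 2594 (0.51).

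The remaining ring-trimming enzymes went the other way, and SC5D differed most. TM7SF2, a sterol reductase of the endoplasmic reticulum, read 235 against 56.9, below the floor there, and was lower by at least 3.02-fold there. With a floor 2 times as high its bound was -0.60, under 2-fold. NSDHL and HSD17B7, which act with MSMO1 in demethylation, read 1782 against 1266 (-0.49) and 1812 against 1204 (-0.59). HSD17B7 rests on 1 probe set whose ID ends in _x_at, a kind that can match other transcripts. EBP, the isomerase that moves the ring's double bond, read 2588 against 1752 (-0.56), with its 4 probe sets between -0.56 and 0.01. SC5D, the desaturase that makes 7-dehydrocholesterol, read 3821 against 587, 6.51-fold lower. Its other probe set lay below both floors, so the value rests on 1 probe set, of the _s_at kind that can match several transcripts of a gene. DHCR7, the reductase of the last step, read 559 against 282 in its brightest probe set, 1.98-fold lower and so just under the threshold, and 365 against 338 (-0.11) in the other. The probe sets of DHCR7 therefore disagree on size but not on direction.

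Over the whole route, 10 of 14 detected sterol enzymes were below 0 (71.4%, against 49.6% of all detected genes) and the median log2 difference was -0.49, beside 0.0096 for all genes. The median of the 8 steps from LSS on was -0.58, but 0.010 without the _x_at and _s_at probe sets, so that neither part of the route kept its direction in all alternatives. The median over all sterol enzymes stayed below 0 in every alternative run, from -0.80 with the hybridisation controls set equal to -0.25 without the _x_at and _s_at probe sets, which left 9 enzymes. The differences of single enzymes other than FDPS, LSS, TM7SF2, SC5D and DHCR7 were between -0.59 and 0.60, at most slightly above the SD of 0.46. Of the epithelial markers, DSP, KRT18 and CDH1 were lower on the same array and KRT8 and EPCAM higher. Any part of a difference between the cells in the sterol median was not tested.

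Among the genes that sense sterols, those of both INSIG proteins were higher and that of SCAP lower. INSIG1, which retains SCAP in the endoplasmic reticulum and is itself an SREBP target, read 1441 on the control-labelled array and 7596 on the knockdown-labelled array, 5.27-fold higher. Its further probe sets read 624 against 4414 (7.07-fold) and 242 against 1216 (5.02-fold), so that all 3 were more than 5-fold higher. INSIG2, its paralog, read 1081 against 2366 in 1 probe set, 2.19-fold higher, and 0.83 on the log2 scale with the hybridisation controls set equal. SCAP, the escort that INSIGs bind, read 1804 against 733, 2.46-fold lower. The retention genes and the escort gene thus differed in opposite directions.

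The SREBP genes themselves gave low signals. SREBF1, whose protein mainly drives fatty acid genes, read 114 against 233, 2.04-fold higher, and its dimmer probe set read 23.8, below the floor, against 126 (at least 2.07-fold). SREBF1 was under 2-fold with quantile scaling, with the hybridisation controls set equal, with a floor 2 times as high and with a pseudocount of 50. SREBF2, whose protein mainly drives cholesterol genes, read 148 against 215 (0.54), with further probe sets at 0.55 and -0.41. SREBF2 therefore had no single direction. Of the 5 SREBP regulators, 3 were at least 2-fold higher and 1 lower (all detected genes 16.0% and 15.4%), which became 1 and 1 with the hybridisation controls set equal. STARD4, a soluble sterol carrier and SREBP target, read 706 against 1101 (0.64).

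Of the LXR genes, ABCA1 stood apart. ABCA1, which exports cholesterol to apolipoprotein A-I and is a classic LXR target, read 734 on the control-labelled array and 5179 on the knockdown-labelled array, 7.06-fold higher, the largest difference of any member on the deposited scaling. With the hybridisation controls set equal SC5D differed more (-3.01, against 2.52 for ABCA1). The second ABCA1 probe set read 279 against 2546, 9.13-fold higher, and the other ABCA1 probe sets lay below both floors. ABCG1, the partner exporter and also an LXR target, read 59.8, just below the floor, against 86.0, at least 1.41-fold higher. The second ABCG1 probe set read 66.5, just above the floor, against 13.1, below it. It thus pointed the other way, though it gave no fold, and the rest lay below both floors. With a common floor the value of ABCG1 was 0.14. ABCG1 was therefore close to the limit of detection on both arrays, and its direction is not settled. NR1H3, the gene of LXR alpha, read 288 against 358 (0.31), within the SD of a probe set. ABCA1 was thus the only gene of this group called past 2-fold, with ABCG1 known only by its bound.

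**Figure D2:**
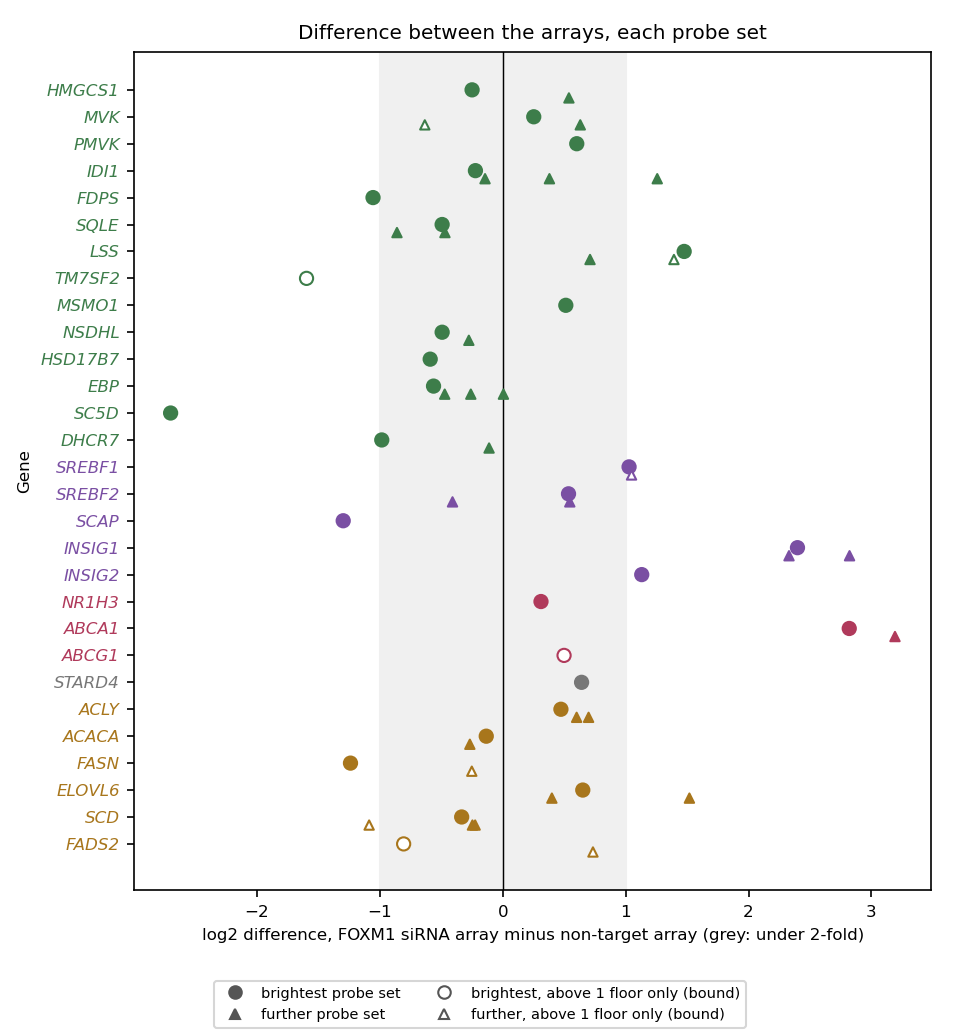
log2 difference (knockdown-labelled minus control-labelled array) of every member probe set above at least 1 floor that gave a fold, 1 row per gene. Colours give the role, as in the plot of signals. Circles are the brightest probe set and triangles the others (drawn slightly lower). Open symbols are bounds, and the grey band is under 2-fold. The probe sets of INSIG1 and of ABCA1 lie together above 2, those of IDI1 and FADS2 spread across 0.

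The fatty acid genes showed no common direction. ACLY, which splits citrate to supply acetyl-CoA, read 8879 against 12326 (0.47), and its 3 probe sets lay between 0.47 and 0.70. ACACA, the carboxylase of the first committed step, read 876 against 798 (-0.13) and 469 against 389 (-0.27). FASN, the synthase that builds palmitate, read 578 against 245, 2.36-fold lower in its brightest probe set. The other FASN probe set read 92.6 against 28.3, at least 1.19-fold lower, and with the median of probe sets FASN was at -0.75, under 2-fold. The supplier, the carboxylase and the synthase of palmitate were therefore higher, about level and lower.

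No elongation or desaturation gene was called 2-fold different in its brightest probe set. ELOVL6, which lengthens palmitate to stearate, read 1510 against 2371 (0.65), and its 3 probe sets were all above 0, up to 1.52. SCD, the desaturase that makes oleate, read 6678 against 5297 (-0.33), and its 3 probe sets above both floors lay between -0.33 and -0.22. The fourth SCD probe set read 165 against 57.6, at least 2.12-fold lower. FADS2, the first desaturase of polyunsaturated fatty acids, read 136 against 59.3, below the floor (at least 1.75-fold lower), in 1 probe set and 14.3, below the floor, against 101 (at least 1.66-fold higher) in the other. The direction of FADS2 is thus not settled by these probe sets. The 6 detected fatty acid genes had a median of -0.23, which was 0.030 with a floor 2 times as high and 0.65 without the _x_at and _s_at probe sets, where 3 genes were left.

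Genes of the same pathways outside the set also lay on both sides. Among 16 detected sterol handling genes, 3 were higher (18.8%) and 4 lower (25%) by at least 2-fold, near the 16.0% and 15.4% of all detected genes, and the median was 0.016. ACAT2, the cytosolic thiolase that supplies acetoacetyl-CoA to HMGCS1, read 3126 against 683, 4.58-fold lower in 1 probe set. LBR, a sterol reductase of the nuclear envelope with the same activity as TM7SF2, read 15951 against 4290, 3.72-fold lower. ACAT1, the mitochondrial thiolase, read 7798 against 2307, 3.38-fold lower. These thiolases and the reductase lay on the same side as most sterol enzymes of the set. On the other side, NPC1 and NPC2, which pass cholesterol out of lysosomes, read 2250 against 7292 (3.24-fold higher) and 5299 against 10951 (2.07-fold higher). VLDLR, a lipoprotein receptor, read 593 against 1862, 3.14-fold higher. With the hybridisation controls set equal, 2 sterol handling genes were higher and 6 lower.

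In the wider fatty acid and lipid synthesis list, 7 of 20 detected genes were higher (35%) and 4 lower (20%) by at least 2-fold, against 16.0% and 15.4% of all detected genes, and the median was 0.17. ME1, the malic enzyme that supplies NADPH to fatty acid synthesis, read 2834 against 147, 19.3-fold lower, and a second probe set read 1531 against 54.4, below the floor. ELOVL2 and ELOVL4, elongases of very long chains, read 1093 against 110 (9.91-fold lower) and 1392 against 238 (5.86-fold lower). These were the largest differences of the list. In the other direction LPIN1, a phosphatidate phosphatase, read 563 against 1610 (2.86-fold higher) and in a second probe set 527 against 1383 (1.39 on the log2 scale). ACSL4, which activates polyunsaturated fatty acids, read 950 against 2519 (2.65-fold higher), with a second probe set near the floors at 0.33. ACSS2, which makes acetyl-CoA from acetate, read 227 against 580 (2.55-fold higher). Setting the hybridisation controls equal changed the counts to 5 higher and 6 lower.

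**Figure D3:**
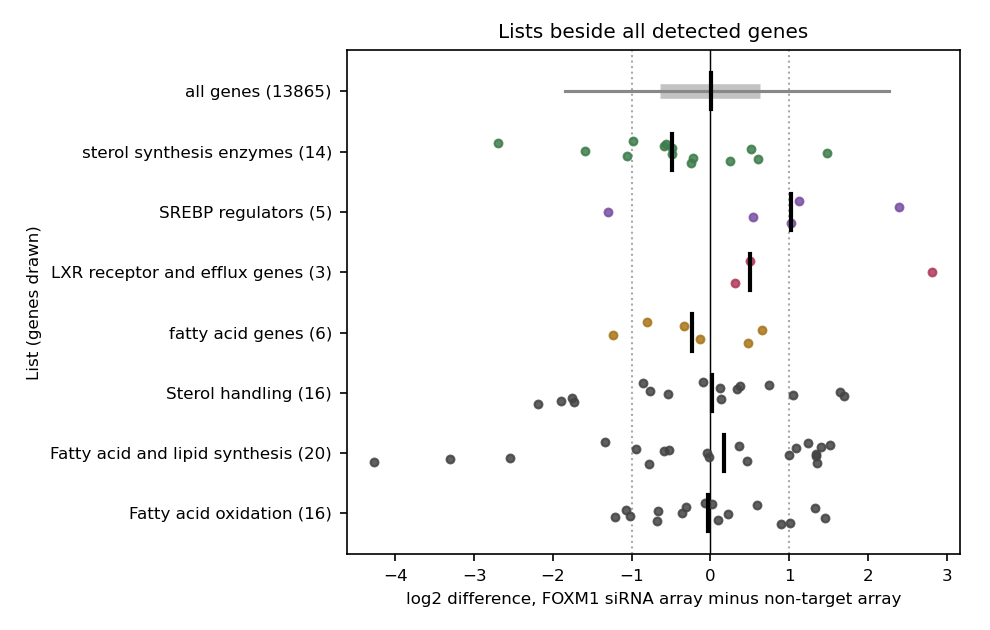
log2 difference (knockdown-labelled minus control-labelled array) of each detected gene in the member groups and the wider lists, with the number of genes drawn. The sterol carrier STARD4 is not drawn. Black bars are medians, and for all genes the thick bar spans the quartiles and the thin line the central 5th to 95th percentile. The sterol enzymes have a median of -0.49 and the SREBP regulators one of 1.03, while the wider lists lie around 0 with members on both sides.

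Within the set, 15 members had at least 2 probe sets above both floors, and in 11 of them all such probe sets went the same way. The 4 that did not were EBP, HMGCS1, IDI1 and SREBF2, none of them past 2-fold. Among the members past 2-fold, ABCA1 and INSIG1 had several bright probe sets in accord, with SDs of 0.26 and 0.27, and LSS had an SD of 0.54. SC5D, SCAP, FDPS, INSIG2 and TM7SF2 each had only 1 probe set above a floor and so no such check. All 10 members past 2-fold kept their direction in the 11 alternatives that could be run on them, or in 10 where the probe set was left out, and ABCA1, INSIG1, LSS, SC5D and SCAP were past 2-fold in each.

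**Figure D4:**
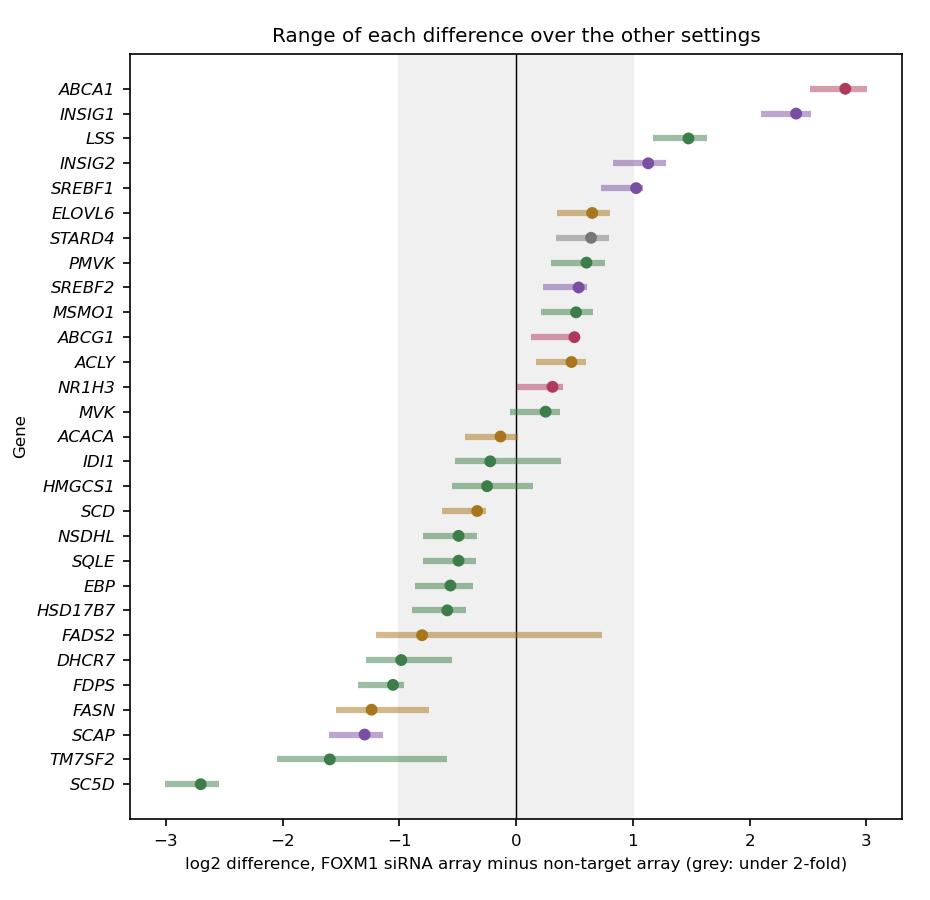
log2 difference of each of the 29 detected members (point) and its range over the other processing settings (bar), in order of size, coloured by role as in the plot of signals; the grey band is under 2-fold. The bars of ABCA1, INSIG1, LSS, SCAP and SC5D lie wholly outside the band, and the bar of FADS2 runs from -1.20 to 0.73.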

How the data were processed

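RNA of 2 samples was measured on 1 array each, after labelling with a 3′ IVT kit, per the labels' protocols. The deposited values are linear signal intensities for 54675 probe sets, made by the authors with MAS5, per the submitters' processing notes; its version is not given in the sources used here. On both arrays a trimmed mean of 500.07 was found, so they had been scaled to a common target. Of 42898 annotated probe sets, 41097 had 1 gene symbol and 1801 several, the latter naming no gene, and 11777 were unlisted. For 99.9% of the probe sets with 1 symbol, the current symbol was looked up by gene ID, whether or not it differed.

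Signals below the floor, the 90th percentile of 135 olfactory receptor probe sets (60.8 and 77.7), were raised to it before log2. Each gene was represented by its brightest probe set (mean log2), detected if above the floor on at least 1 array; with 1 side below the floor the fold is a bound ("at least"). The threshold was 2-fold, and the number of arrays limits the precision. All members, and up to 3 genes per direction of each wider list, are named. The members, lists and rules were chosen with earlier results of these data known. Alternatives were median, quantile, loess (span 0.3) and hybridisation-control scaling (18 probe sets), no, higher (2 times) or common floors, the median of probe sets, leaving out _x_at and _s_at probe sets, a pseudocount of 50, a 1.5-fold threshold, members above both floors, and the mean. The calculation was tested on simulated data. Promoters came from RefSeq (GRCh38.p14), with 30 of 34 members matched. Python 3.11.15, numpy 2.4.6, pandas 2.3.3 and statsmodels 0.14.6 were used.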

Additional observations from a re-analysis of the deposited data

How the results depend on the processing

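With 1 array per condition, no array could be left out, and no paired analysis was possible because each group has a single array. Of 63 values for the set and its groups, 47 stayed within their spread (for counts 1.5 times). The members' median of -0.13 changed sign with the median of probe sets (0.14), loess scaling (0.016), a doubled floor (0.030), no _x_at and _s_at probe sets (0.45), members above both floors (0.059) and the mean (0.020), so its direction is not settled. With the hybridisation controls set equal (median of all genes -0.29), 3 members were higher and the medians were -0.44 for members, -0.80 for sterol enzymes and -0.54 for fatty acid genes. The fatty acid median was 0.030 with a doubled floor. Without _x_at and _s_at probe sets 2 members were lower, and the medians were -0.25 for sterol enzymes, 0.65 for fatty acid genes and 0.010 for the steps from the ring on; 9 members had no other detected probe set. At 1.5-fold, 8 members were higher and 8 lower, against 26.1% and 26.8% of all genes. The causes were not tested. Ranking probe sets on signals raised to the floor, added after seeing the data, moved no call of a member. Signals near the floors limit ABCG1, FADS2, TM7SF2, SREBF1 and SREBF2.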

Other observations

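Fatty acid oxidation, the route that breaks down what the set builds, had genes on both sides. Its median log2 difference was -0.028, with 3 of 16 detected genes at least 2-fold up and 3 at least 2-fold down (18.8% each), near the 16.0% and 15.4% of all detected genes. ACADVL, the dehydrogenase for very long chains, read 1151 on the control-labelled array and 3160 on the knockdown-labelled array, 2.74-fold higher. ACADM and ACADS, the dehydrogenases for medium and short chains, read 7258 against 3138 (2.31-fold lower) and 256 against 126 (2.03-fold lower). ETFB and ETFA, the subunits of the flavoprotein that takes electrons from all of them, differed in opposite directions, at 2030 against 5115 (2.52-fold higher) and 11216 against 5348 (2.10-fold lower). CPT1C, a carnitine acyltransferase gene, read 273 against 553 (2.02-fold higher). With quantile scaling 2 genes were higher and 3 lower.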
